A study of Mus musculus with 12 samples.

Results

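The Myc-Max network and the cyclins and kinases that it meets at the start of the cell cycle were followed here through 10 genes: Myc, Max, Mxd1, Mxd3, Mxd4, Mxi1, Ccnd2, Ccnd3, Cdk4 and Cdk6. They were taken by name, and every probe set that the platform annotation assigns to one of these symbols alone was kept. This gave 30 probe sets of the 45037 tested on the arrays, and 10 of the 18193 genes with a probe set of their own. The brightest probe set over the 12 arrays stands for each gene, and the others are given beside it.

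The cells were splenic B220+ B cells of C57BL/6 mice carrying the transgene Tg(IghelMD4)4Ccg, which gives B cells a receptor for hen egg lysozyme (HEL). They were selected with magnetic beads and cultured in RPMI medium with fetal bovine serum. All groups received interleukin-21, HEL and an antibody to CD40. HEL is the antigen of the transgenic receptor, and interleukin-21 and CD40 signals are of the kind that follicular helper T cells give to B cells. Controls received a control RNA interference construct, and the other groups one against Jmjd2a (Kdm4a) or Jmjd2c (Kdm4c), 2 histone demethylases; the labels speak of siRNA in one place and of shRNA virus in another. RNA was taken at day 1 or day 3, with 2 arrays in each of the 6 groups. The sources used here state neither the age of the mice nor how many stand behind an array. The arrays are called biological replicates, but no separate cultures or animals are named, so p-values measure only the spread between these arrays.

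Myc is a transcription factor that binds DNA as a pair with Max, mostly at E-box sequences such as CACGTG, and drives genes of ribosome assembly, nucleotide synthesis and growth. Mxd1, Mxd3, Mxd4 and Mxi1 (also called Mxd2) pair with Max too, but recruit Sin3 and histone deacetylases and repress. D cyclins pair with Cdk4 or Cdk6 to phosphorylate the retinoblastoma protein, which frees E2F factors and lets a cell enter S phase. Activated B cells raise Myc and Ccnd2 early, and plasma cell differentiation is known to shut Myc down through Blimp-1, the product of Prdm1.

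The E-box that Myc-Max pairs and Mxd-Max pairs share can be seen in the promoters of 4 of the 8 genes with a listed window. Those 4 promoters are shown here because they hold it. The genes code for the common partner, for one repressor and for both kinases. RefSeq promoter windows on GRCm38.p6, from 250 bases before to 50 after each annotated start, were listed for 8 of the 10 genes. Entries for Myc and Ccnd2 are not in that table. The printed stretch runs from 250 bases before to 20 after the start, 270 bases in all, 5′ to 3′ on the strand of the gene. Capitals mark CACGTG, which reads the same on both strands.
Cdk4, chr10:127063285-127063554, plus strand: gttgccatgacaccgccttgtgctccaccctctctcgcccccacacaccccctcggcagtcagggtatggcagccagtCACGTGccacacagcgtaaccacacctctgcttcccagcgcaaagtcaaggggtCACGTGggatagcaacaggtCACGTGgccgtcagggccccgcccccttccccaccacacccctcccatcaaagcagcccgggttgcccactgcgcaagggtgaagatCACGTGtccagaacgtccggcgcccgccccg
Cdk6, chr5:3343643-3343912, plus strand: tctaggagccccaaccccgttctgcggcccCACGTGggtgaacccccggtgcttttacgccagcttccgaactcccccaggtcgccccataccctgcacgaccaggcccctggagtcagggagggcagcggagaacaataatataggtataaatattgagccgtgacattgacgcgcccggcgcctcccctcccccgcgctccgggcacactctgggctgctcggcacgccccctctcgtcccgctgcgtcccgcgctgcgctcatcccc
Max, chr12:76962229-76962498, minus strand: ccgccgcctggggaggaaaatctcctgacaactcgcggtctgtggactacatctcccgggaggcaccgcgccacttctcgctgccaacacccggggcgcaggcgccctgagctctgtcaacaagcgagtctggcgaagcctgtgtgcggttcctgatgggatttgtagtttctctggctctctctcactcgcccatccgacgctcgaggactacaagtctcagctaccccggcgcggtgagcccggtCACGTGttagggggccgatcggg
Mxd4, chr5:34187691-34187960, minus strand: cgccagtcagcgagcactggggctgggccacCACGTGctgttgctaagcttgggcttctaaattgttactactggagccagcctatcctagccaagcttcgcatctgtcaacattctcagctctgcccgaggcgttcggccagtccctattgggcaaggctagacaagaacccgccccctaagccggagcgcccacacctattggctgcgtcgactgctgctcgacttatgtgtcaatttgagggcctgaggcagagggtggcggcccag

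The Cdk4 window held 4 copies of CACGTG, starting at positions -172, -118, -98 and -11 relative to the start. Cdk6 held 1 copy at -220, Mxd4 1 at -219 and Max 1 at -3. The letters were not found in the listed windows of Mxd1, Mxd3, Mxi1 and Ccnd3. At least 1 copy stood in a listed window of 50% of the 8 genes, of 26.1% of 23 Myc target genes with an entry, and of 8.09% of all 27025 genes listed. Over windows of this length the share was 7.15% of 32851, and 8 of these windows, 0.024%, held 4 or more copies. A match is a description of these letters, not evidence of binding.

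Some facts of the whole series bear on what follows. The constructs' own targets did not pass the test at the transcript level. Kdm4a differed by 0.11 (adjusted p = 0.62) at day 1 and -0.12 (adjusted p = 0.36) at day 3 in the arrays labelled Jmjd2a. Kdm4c differed by 0.19 (adjusted p = 0.41) and 0.03 (adjusted p = 0.91) in those labelled Jmjd2c, all on the log2 scale in limma. Both Kdm4a values at day 3 under Jmjd2a lay below both controls. So did both under Jmjd2c, where Kdm4a differed by -0.22 (adjusted p = 0.14). At day 1 each target read above both controls on both arrays of its own label. The groups are therefore called by their labels. The day 3 control arrays agreed least with each other (Pearson r over probe sets 0.9887, against 0.9959 to 0.9978 in the other groups), and replicate 2 had the narrowest spread of values. Against the day 1 controls, 0.167% of probe sets differed in the day 3 arrays labelled Jmjd2a and 0.16% in those labelled Jmjd2c, against 20.8% and 14.3% against the controls of their own day. Of 7 measured B cell markers, the mean log2 level lay between 9.34 and 10.5 on all 12 arrays. The mean level of 12 macrophage markers was 5.18 to 5.23 in day 1 controls, 8.04 to 8.45 and 7.91 to 9.09 in the day 1 arrays labelled Jmjd2a and Jmjd2c, 6.79 to 6.92 in day 3 controls and 5.84 to 5.98 in the labelled day 3 arrays. In bulk RNA, fewer cells of a type and less RNA per cell cannot be told apart.

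Myc, Ccnd2, Ccnd3, Cdk4 and Cdk6 fell from day 1 to day 3 in control cells, to between 41.5% and 70.6% of their day 1 level, while the repressors Mxd3 and Mxd4 rose 1.91-fold and 3.82-fold. At day 3, in arrays of either depletion label, the same 5 genes were higher than in controls and the same 2 repressors lower. Day 1 looked different: Mxd4 and Mxi1 were higher under both labels, and Ccnd2 and Cdk4 lower. The tests behind these statements follow gene by gene, each a limma model over all 45037 probe sets with Benjamini-Hochberg adjustment and a threshold of 0.05. All differences are log2 differences, so a value of 1 is a doubling.

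**Figure D1:**
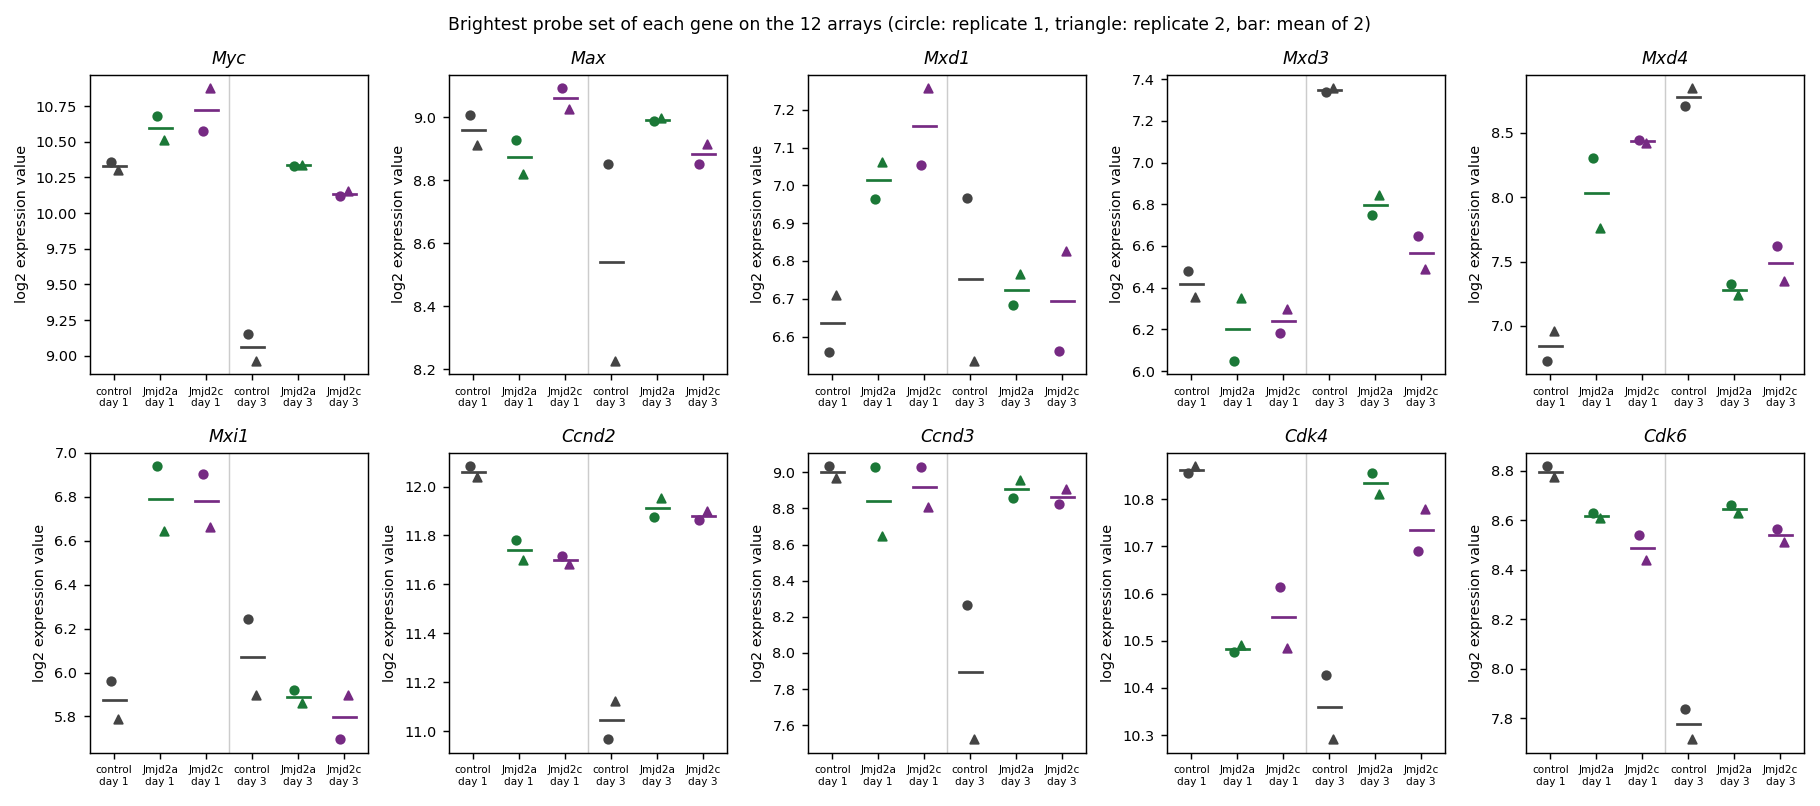
Log2 expression value (vertical axes, each with its own range) of the brightest probe set of each of the 10 genes in the 6 groups (horizontal axes); circles are replicate 1, triangles replicate 2 and bars the mean of 2 arrays. The day 3 control arrays are lowest for Myc, Ccnd2, Ccnd3, Cdk4 and Cdk6 and highest for Mxd3 and Mxd4.

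In control cells 7 of the 10 genes changed between the days, 2 upward and 5 downward. Of all probe sets 23.8% changed, 8.46% upward and 15.4% downward, and of those above the median level 40.1% changed. Counted over all 30 probe sets, 7 rose and 15 fell. The median difference of the 10 genes was -0.46, against 0.04 over all probe sets. Markers of other cell types moved with this comparison: 9 of 12 macrophage markers and 5 of 7 natural killer cell markers rose, with list medians of 1.78 and 1.97. The mean level of the natural killer list went from 5.02 and 5.13 to 7.37 and 7.23, with the granzymes Gzma up by 4.77 and Gzmb by 4.25. Of 8 plasma cell markers 4 rose, among them Jchain by 1.34, Mzb1 by 1.15 and Xbp1 by 0.80, and 1, Sdc1, fell. Prdm1 differed by 0.11, not past the test (adjusted p = 0.66). The part of these shifts in the results was not tested.

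Myc read 10.36 and 10.30 in the day 1 controls and 9.15 and 8.97 in the day 3 controls. The day 3 control pair was the lowest of the 6 groups, with no overlap. Myc fell by 1.27 (95% interval -1.48 to -1.06, adjusted p = 2.6e-06), to 41.5% of its day 1 level. Max, the shared partner, read 9.01 and 8.91 at day 1 and 8.85 and 8.23 at day 3. Its difference of -0.42 did not pass the test (adjusted p = 0.063). Without the first day 3 control array it was -0.73 (adjusted p = 1.7e-05), and without the second -0.11 (adjusted p = 0.42).

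The repressors moved the other way or not at all. Mxd4 read 6.73 and 6.96 at day 1 and 8.71 and 8.85 at day 3, a rise of 1.93 (interval 1.58 to 2.28, adjusted p = 5.1e-06). Mxd3, which is known from cells in S phase, read 6.48 and 6.35 and then 7.34 and 7.36, a rise of 0.93 (adjusted p = 0.00018). Both pairs were clear of each other. Mxd1, at 6.56 and 6.71 and then 6.97 and 6.54, and Mxi1, at 5.96 and 5.79 and then 6.24 and 5.90, overlapped between days, with differences of 0.12 and 0.20 that did not pass.

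Ccnd2, the D cyclin that B cells induce after receptor signals, read 12.08 and 12.04 in day 1 controls and 10.97 and 11.12 in day 3 controls. It fell by 1.02 (interval -1.14 to -0.90, adjusted p = 2.8e-07), to 49.4% of its day 1 level. Cdk6, at 8.82 and 8.78 and then 7.84 and 7.72, fell by the same 1.02 (adjusted p = 4e-06). Both day 3 arrays were below both day 1 arrays for each of these genes.

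Ccnd3, the D cyclin of germinal centre B cells, read 9.03 and 8.97 and then 8.27 and 7.52. It fell by 1.10 (adjusted p = 0.0013), and by 0.73 without the second day 3 control array. The day 3 controls did not overlap the day 1 controls, but had the widest spread of the 6 groups for this probe set (SD 0.52). Cdk4, at 10.86 and 10.87 and then 10.43 and 10.29, fell by 0.50 (adjusted p = 0.00014), the smallest of the 5 falls.

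The course under the labels differed from this for some of the genes. From day 1 to day 3, 4 of the 10 genes changed under the Jmjd2a label, 2 up and 2 down, where 2.26% of all probe sets rose and 3.35% fell (5.61% in all, and 9.92% of those above the median level). Under the Jmjd2c label 3 changed, all downward, where 3.27% of all probe sets rose and 5.36% fell (8.63% in all, and 15.2% of those above the median level). Those counts are of the brightest probe sets. Among all 30 probe sets of the genes, 7 rose and 3 fell under Jmjd2a, and 5 rose and 5 fell under Jmjd2c. Mxd4 fell by 0.75 (adjusted p = 0.017) and 0.95 (adjusted p = 0.003), the opposite of its course in controls. Mxi1 fell by 0.90 (adjusted p = 0.0048) and 0.98 (adjusted p = 0.0019). These falls began from day 1 levels that were above the controls.

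Myc fell by 0.59 under the Jmjd2c label (adjusted p = 0.0025), and its difference of -0.26 under the Jmjd2a label did not pass (adjusted p = 0.17). Under the Jmjd2a label Cdk4 rose by 0.35 (adjusted p = 0.0078, and 0.064 with no intensity trend) and Mxd3 by 0.59 (adjusted p = 0.015). At the brightest probe sets Ccnd2 differed by 0.17 (adjusted p = 0.10) and 0.18 (adjusted p = 0.069), Ccnd3 by 0.07 and -0.05, and Cdk6 by 0.03 and 0.05, none past the test. Other probe sets of these genes did pass. Of 7 for Ccnd2, 3 rose under each label, and the second-brightest of Ccnd3 differed by -1.57 and -2.13. Of 3 for Mxd3, 1 rose under each label, the brightest under Jmjd2a and the dimmest under Jmjd2c (0.85). Of 3 for Cdk4, 3 rose under Jmjd2a and 1 under Jmjd2c. Calls among the 4 changes under the Jmjd2a label were lost without the first day 1 array or either day 3 array of that label. Such fits leave 1 array in a group. With each of the 12 arrays left out in turn, the differences ran from 0.329 to 0.373 for Cdk4 and from 0.443 to 0.746 for Mxd3. They ran from -1.03 to -0.478 for Mxd4 and from -1.05 to -0.753 for Mxi1. Under the Jmjd2c label the fall of Mxd4 did not pass without the second day 3 array of that label (-0.82, adjusted p = 0.054). That label's count rose from 3 to 6 without either day 3 control array, which that comparison does not use, and to 6 with array weights.

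**Figure D2:**
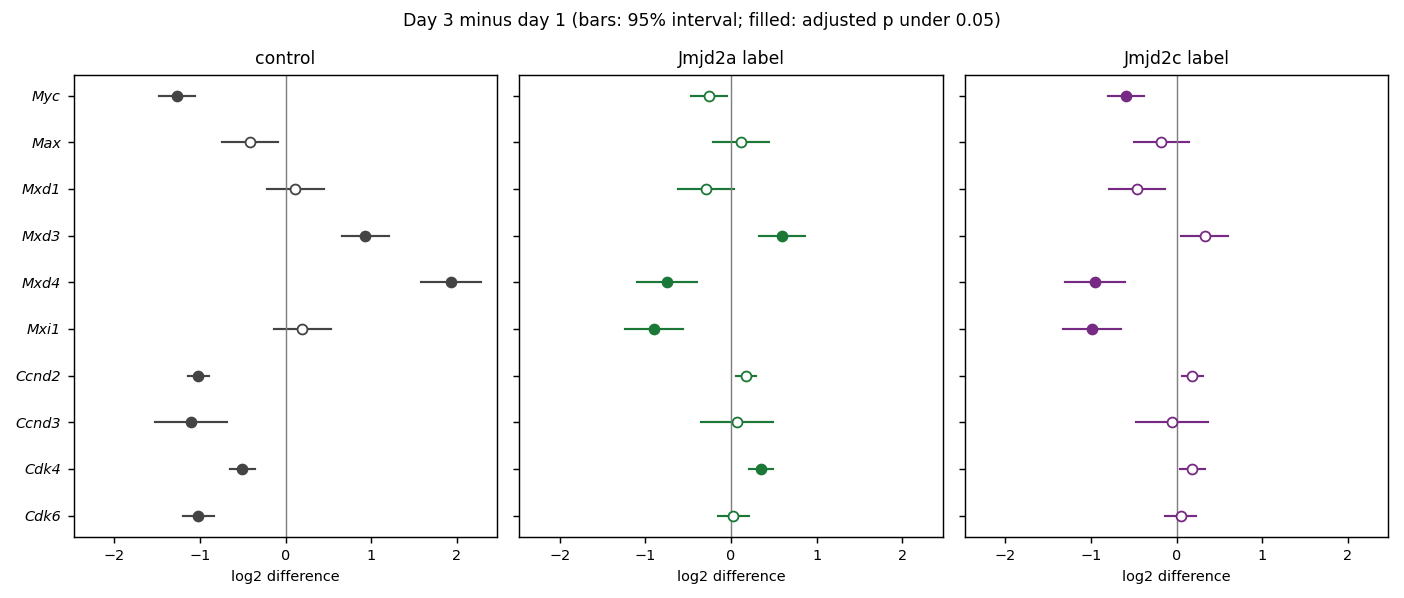
Log2 difference of day 3 minus day 1 (horizontal axes) for the 10 genes in control cultures and in those of each label; bars are 95% intervals of the limma fit and filled points passed at an adjusted p under 0.05. Myc, Ccnd2, Ccnd3, Cdk4 and Cdk6 lie left of 0 with filled points in controls, and Mxd4 lies right of 0 in controls and left of 0 under both labels.

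At day 3 each label was set against the controls of that day; both comparisons share those 2 control arrays, so their values are given side by side and one does not repeat the other. Under each label 7 of the 10 genes differed, 5 higher and 2 lower. Of all probe sets 20.8% differed under the Jmjd2a label, 13.7% higher and 7.11% lower, and 14.3% under the Jmjd2c label, 9.28% higher and 5.04% lower. Among probe sets above the median level those shares were 35.2% and 26.3%. Of the 30 probe sets, 15 were higher and 7 lower under Jmjd2a, and 14 higher and 6 lower under Jmjd2c. In the same comparisons 7 and 6 of 12 macrophage markers were lower, with list medians of -1.19 and -1.08. So were 5 of 7 natural killer cell markers under each label, with medians of -1.4 and -1.25. Of 8 plasma cell markers 5 were lower and 1 higher under Jmjd2a. The mean level of that list was 9.18 to 9.22 in the labelled day 3 arrays of both labels, against 9.54 and 9.49 in controls. The part of these markers in the result was not tested. Fewer macrophage markers passed under Jmjd2a without that label's second day 3 array, where the list median was -1.09. The same held under Jmjd2c without its first or second day 3 array, with medians of -1.19 and -1.01. With array weights 4 and 3 macrophage markers were lower under Jmjd2a and Jmjd2c.

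Myc read 10.33 and 10.34 in the day 3 arrays labelled Jmjd2a and 10.12 and 10.15 in those labelled Jmjd2c, against 9.15 and 8.97 in controls. All 4 labelled arrays lay above both controls. Myc was higher by 1.28 (interval 1.07 to 1.49, adjusted p = 5.5e-06), or 2.42-fold, and by 1.08 (interval 0.87 to 1.29, adjusted p = 2e-05), or 2.11-fold. Max read 8.99 and 9.0, and 8.85 and 8.91, against 8.85 and 8.23. Its differences of 0.45 (adjusted p = 0.052) and 0.34 (adjusted p = 0.17) did not pass, and became 0.76 and 0.65, past the test, when the first day 3 control array was left out, but 0.14 (adjusted p = 0.29) and 0.03 (adjusted p = 0.87) without the second.

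Mxd4 read 7.32 and 7.24 under Jmjd2a and 7.62 and 7.35 under Jmjd2c, against 8.71 and 8.85 in controls. It was lower on all 4 arrays than on both controls, with differences of -1.5 (interval -1.85 to -1.15, adjusted p = 5.8e-05) and -1.29 (interval -1.64 to -0.94, adjusted p = 0.00019), or 35.4% and 40.8% of the control level. Mxd3 read 6.75 and 6.84, and 6.65 and 6.49, against 7.34 and 7.36. Its differences were -0.55 (adjusted p = 0.0082) and -0.78 (adjusted p = 0.0011), and the first did not pass without the first array of its group (-0.50, adjusted p = 0.072) or with array weights (adjusted p = 0.056). Mxd1 and Mxi1 overlapped the control pair, at -0.03 and -0.06 for Mxd1 and -0.18 and -0.27 for Mxi1, none past the test.

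Ccnd2 read 11.87 and 11.95, and 11.86 and 11.90, against 10.97 and 11.12 in controls. It was higher by 0.87 (interval 0.75 to 0.99, adjusted p = 2.1e-06) and 0.84 (interval 0.72 to 0.96, adjusted p = 3e-06). Cdk6 read 8.66 and 8.63, and 8.56 and 8.51, against 7.84 and 7.72, higher by 0.87 (adjusted p = 2.4e-05) and 0.76 (adjusted p = 7.1e-05). The 4 labelled arrays of each gene stood together, well clear of the controls.

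Ccnd3 read 8.86 and 8.96, and 8.82 and 8.90, against 8.27 and 7.52. It was higher by 1.01 (adjusted p = 0.0029) and 0.97 (adjusted p = 0.0048). The second day 3 control array set much of that size: without it the differences were 0.64 and 0.60, still past the test, while the Jmjd2c difference did not pass without that label's second day 3 array (0.93, adjusted p = 0.056). Cdk4 read 10.86 and 10.81, and 10.69 and 10.78, against 10.43 and 10.29, higher by 0.47 (adjusted p = 0.00032) and 0.38 (adjusted p = 0.0019).

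Set against the day 1 controls instead, none of the 10 genes at its brightest probe set differed in the day 3 arrays of either label. Of all probe sets only 0.167% differed there under Jmjd2a and 0.16% under Jmjd2c, so this count says nothing particular about the 10 genes. Myc differed by 0.01 under Jmjd2a and -0.19 under Jmjd2c, and Ccnd2 by -0.15 and -0.18, none past the test. Among the other probe sets of the 10 genes, 2 of Ccnd2 were lower: the fifth-brightest by 0.47 (adjusted p = 0.035) under Jmjd2a, and the sixth-brightest by 0.53 (adjusted p = 0.024) under Jmjd2a and 0.48 (adjusted p = 0.042) under Jmjd2c. A p that misses the threshold does not show equal levels.

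**Figure D3:**
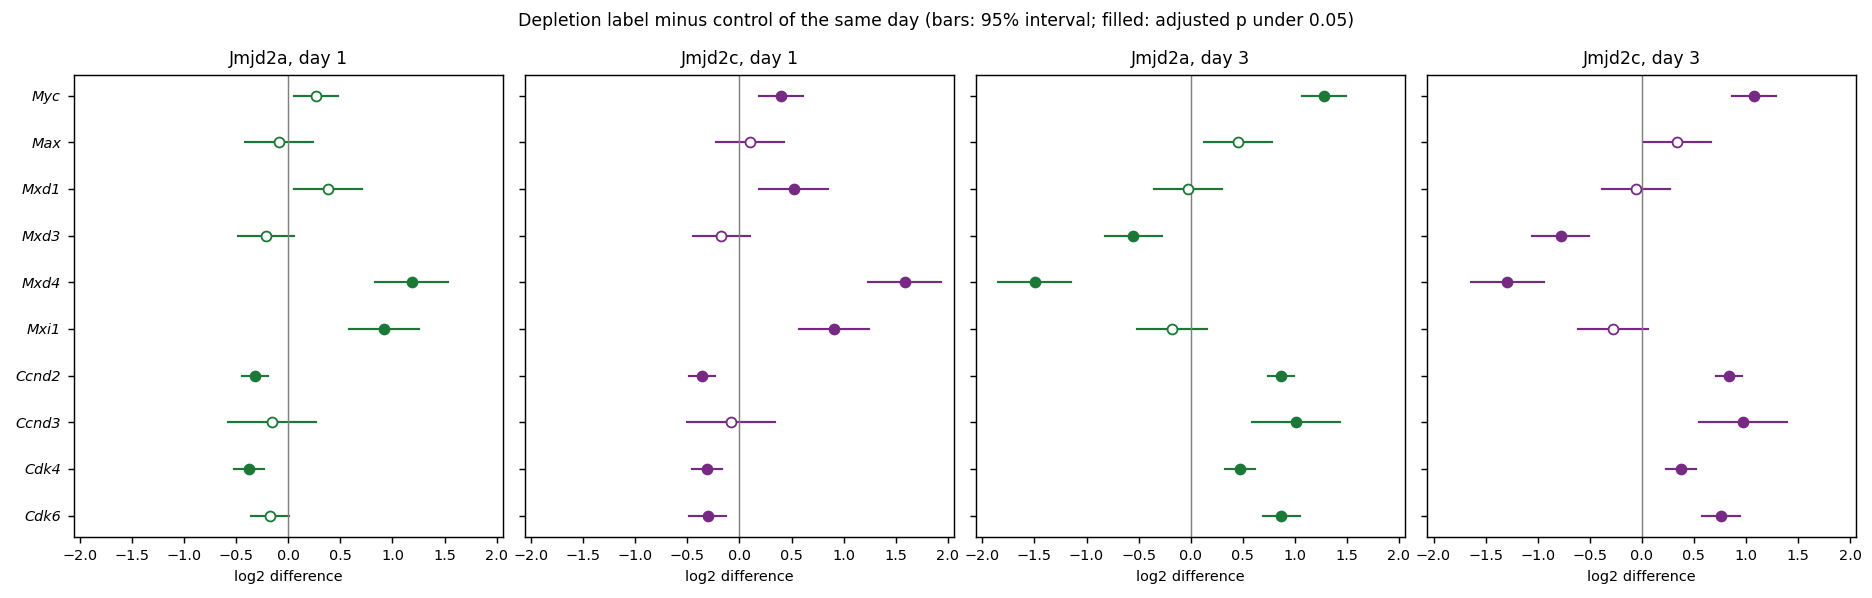
Log2 difference of each depletion label minus the control of the same day (horizontal axes) for the 10 genes; bars are 95% intervals of the limma fit and filled points passed at an adjusted p under 0.05. Mxd4 lies right of 0 at day 1 and left of 0 at day 3, and Ccnd2 and Cdk4 lie left of 0 at day 1 and right of 0 at day 3.

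At day 1, 4 of the 10 genes differed under the Jmjd2a label, 2 higher and 2 lower. Of all probe sets 7.47% differed there, 4.23% higher and 3.25% lower, and of those above the median level 13.4%. Under the Jmjd2c label 7 differed, 4 higher and 3 lower, where 11% of all probe sets did, 5.32% higher and 5.69% lower, and 19.6% of those above the median level. The Jmjd2a count was 2 without the second day 1 control array. The Jmjd2c count was 3 without either day 1 control array, without that label's second array, or with no intensity trend in the model, where Myc, Mxd1, Cdk4 and Cdk6 did not pass (adjusted p = 0.068, 0.065, 0.061 and 0.056). Of the 30 probe sets, 4 were higher and 10 lower, and 7 higher and 14 lower. These comparisons share the day 1 control arrays. All 12 macrophage markers were higher in both, with list medians of 2.71 and 2.99; 5 and 6 of 7 B cell markers were also higher, with medians of 1.06 and 1.43. Of 7 natural killer cell markers 5 and 6 were higher, among them Klrd1 by 2.72 and 2.95 and Gzma by 2.81 and 3.16. Of 4 erythroid markers 2 and 3 were higher, among them Slc4a1 by 3.91 and 4.11. No neutrophil marker passed, but the mean level of 7 was 5.35 and 7.40 on the first and second Jmjd2a arrays and 5.40 and 8.05 on those of Jmjd2c, against 4.62 and 4.66 in controls. The part of these shifts in the results below was not tested.

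Mxd4 moved most. It read 8.31 and 7.76 under Jmjd2a and 8.45 and 8.42 under Jmjd2c, against 6.73 and 6.96 in day 1 controls, with no overlap. The differences were 1.19 (interval 0.83 to 1.54, adjusted p = 0.00088), or 2.27-fold, and 1.59 (interval 1.24 to 1.94, adjusted p = 7.4e-05), or 3.01-fold. Mxi1 read 6.94 and 6.64, and 6.90 and 6.66, against 5.96 and 5.79. It was higher by 0.92 (adjusted p = 0.0036) and 0.91 (adjusted p = 0.0028), though the first did not pass without the second control array (0.83, adjusted p = 0.06) or the first labelled array (0.77, adjusted p = 0.051).

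Mxd1, which rises when blood cells differentiate, read 6.96 and 7.06, and 7.05 and 7.26, against 6.56 and 6.71. Its difference of 0.38 under Jmjd2a did not pass (adjusted p = 0.18), and that of 0.52 under Jmjd2c passed narrowly (adjusted p = 0.046), a call lost when any array other than the 2 day 3 controls was left out, and with array medians centred (adjusted p = 0.059). Mxd3 differed by -0.22 and -0.18 and Max by -0.09 and 0.10, none past the test.

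Myc read 10.68 and 10.51, and 10.58 and 10.88, against 10.36 and 10.30. All 4 labelled arrays stood above both controls. The difference was 0.27 under Jmjd2a (adjusted p = 0.14, and 0.034 with array weights) and 0.40 under Jmjd2c (interval 0.19 to 0.61, adjusted p = 0.021). The second did not pass without either day 1 control array (0.43, adjusted p = 0.099, without the first and 0.37, adjusted p = 0.15, without the second) or without that label's second array (0.25, adjusted p = 0.20).

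Ccnd2 and the kinases went the other way. Ccnd2 read 11.78 and 11.70, and 11.72 and 11.68, against 12.08 and 12.04. All 4 arrays were below both controls, with differences of -0.32 (adjusted p = 0.0043) and -0.36 (adjusted p = 0.0015), or 80.1% and 77.8% of the control level; the first did not pass without the first control array (-0.30, adjusted p = 0.063) or with no intensity trend (adjusted p = 0.071). Cdk4 read 10.48 and 10.49, and 10.61 and 10.48, against 10.86 and 10.87. All 4 arrays were below both controls, at -0.38 (adjusted p = 0.004) and -0.31 (adjusted p = 0.009). The first did not pass without the second control array (-0.37, adjusted p = 0.056), and the second without either control array (-0.32 and -0.31, adjusted p = 0.072 and 0.083) or that label's second array (-0.25, adjusted p = 0.09).

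Cdk6 read 8.63 and 8.61, and 8.54 and 8.44, against 8.82 and 8.78. It was lower under Jmjd2c by 0.31 (adjusted p = 0.032), and its difference of -0.18 under Jmjd2a did not pass (adjusted p = 0.27). The Jmjd2c call was lost without either day 1 control array, either array of its own group, or any labelled day 3 array, with differences between -0.358 and -0.255. Ccnd3 overlapped the controls, with differences of -0.16 and -0.08 at its brightest probe set, neither past the test.

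The change of the label difference between days was tested directly as the day 3 difference minus the day 1 difference. Under the Jmjd2a label 7 of the 10 genes passed, 5 upward and 2 downward. Of all probe sets 18.3% passed, 12% upward and 6.36% downward, and of those above the median level 32.4%. Under the Jmjd2c label 8 passed, 5 upward and 3 downward, where 17.5% of all probe sets did, 10.7% upward and 6.84% downward, and 31.3% of those above the median level. Mxd4 gave the widest values, -2.68 and -2.88, since it was above control at day 1 and below it at day 3. Ccnd2 gave 1.19 and 1.2 with the opposite turn. These contrasts use all 4 control arrays of the 2 days and share them between labels.

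The 2 labels were also set against each other. At neither day did any probe set pass in limma, 0 of 45037, and so none of the 10 genes did (0% of all probe sets passed). At an unadjusted p under 0.05, 1081 probe sets (2.4%) differed at day 1 and 2571 (5.71%) at day 3. Of the 10 genes, Mxd4 was the one below that level at day 1, lower by 0.40 under Jmjd2a than under Jmjd2c, and none was at day 3. The 95% intervals of the 10 differences together ran from -0.75 to 0.35 at day 1 and from -0.56 to 0.50 at day 3. Those are the outermost limits over the 10 genes, not a limit of detection for each gene. A gene that did not pass is not thereby shown to be equal under the 2 labels.

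The order of the 6 groups can be read from the pair tests between neighbours. For Myc the day 3 controls were lowest and were told apart from the next group, day 3 Jmjd2c, by 1.08. The other neighbours of Myc were not told apart. The same held for Ccnd2 (0.66 below day 1 Jmjd2c), Ccnd3 (0.94 below day 1 Jmjd2a) and Cdk6 (0.71 below day 1 Jmjd2c). For Mxd3 the day 3 controls were highest, 0.55 above day 3 Jmjd2a, and for Mxi1 the 2 day 1 labelled groups stood 0.71 above the day 3 controls. For Mxd4 the day 3 controls were also highest, but neighbouring groups were not told apart at any step, nor were those of Max, Mxd1 and Cdk4.

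Where a gene had more than 1 probe set, these mostly moved together. All 7 probe sets of Ccnd2 fell in controls between the days, by 1.02 to 1.25, and all 7 were higher at day 3 under both labels. At day 1 the 7 were lower by 0.32 to 0.70 under Jmjd2a, where 6 passed, and by 0.36 to 0.92 under Jmjd2c, where 7 passed. The larger day 1 values came from the fifth-brightest (-0.62 and -0.69) and the sixth-brightest (-0.70 and -0.92). All 3 probe sets of Cdk4 passed in the direction of the brightest in each of the 4 label comparisons with control. The 3 probe sets of Cdk6 all fell in controls between the days. At day 1 only the dimmest passed under Jmjd2a (-0.69, mean level 4.46), while all 3 were lower under Jmjd2c, with differences from -0.75 to -0.31. At day 3 all 3 were higher past the test under Jmjd2a and 2 under Jmjd2c.

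The 4 probe sets of Mxd4 were lower at day 3 under both labels, by 0.54 to 1.5 and 0.60 to 1.29, and all passed. At day 1 all 4 were on the higher side, with 2 passing under Jmjd2a and 3 under Jmjd2c. Of the 3 probe sets of Mxd3, all passed at day 3 under Jmjd2a and 2 under Jmjd2c. The dimmest was also lower at day 1 under Jmjd2c (-0.61, adjusted p = 0.017), where the brightest did not pass. The second probe set of Mxi1 did not repeat the day 1 rise of the first (0.05 under each label), and neither of the other 2 probe sets of Mxd1 passed in any label comparison with control.

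The probe sets of Ccnd3 differed in direction at day 1. Its second-brightest probe set read 5.19 and 5.41 in day 1 controls, 7.45 and 6.57 under Jmjd2a and 7.69 and 6.88 under Jmjd2c, then 6.45 and 5.35 in day 3 controls and 5.0 to 5.46 in labelled day 3 arrays. It was higher at day 1 by 1.71 (adjusted p = 0.012) and 1.99 (adjusted p = 0.0038), while the brightest probe set differed by -0.16 and -0.08 there. At day 3 it did not pass (-0.46 and -0.75), while the brightest was higher. The Jmjd2a call was lost without either day 1 control array (adjusted p = 0.11 and 0.076) or the first labelled array (adjusted p = 0.14). The third probe set did not pass in any of these comparisons, so what is said of Ccnd3 holds for its brightest probe set.

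**Figure D4:**
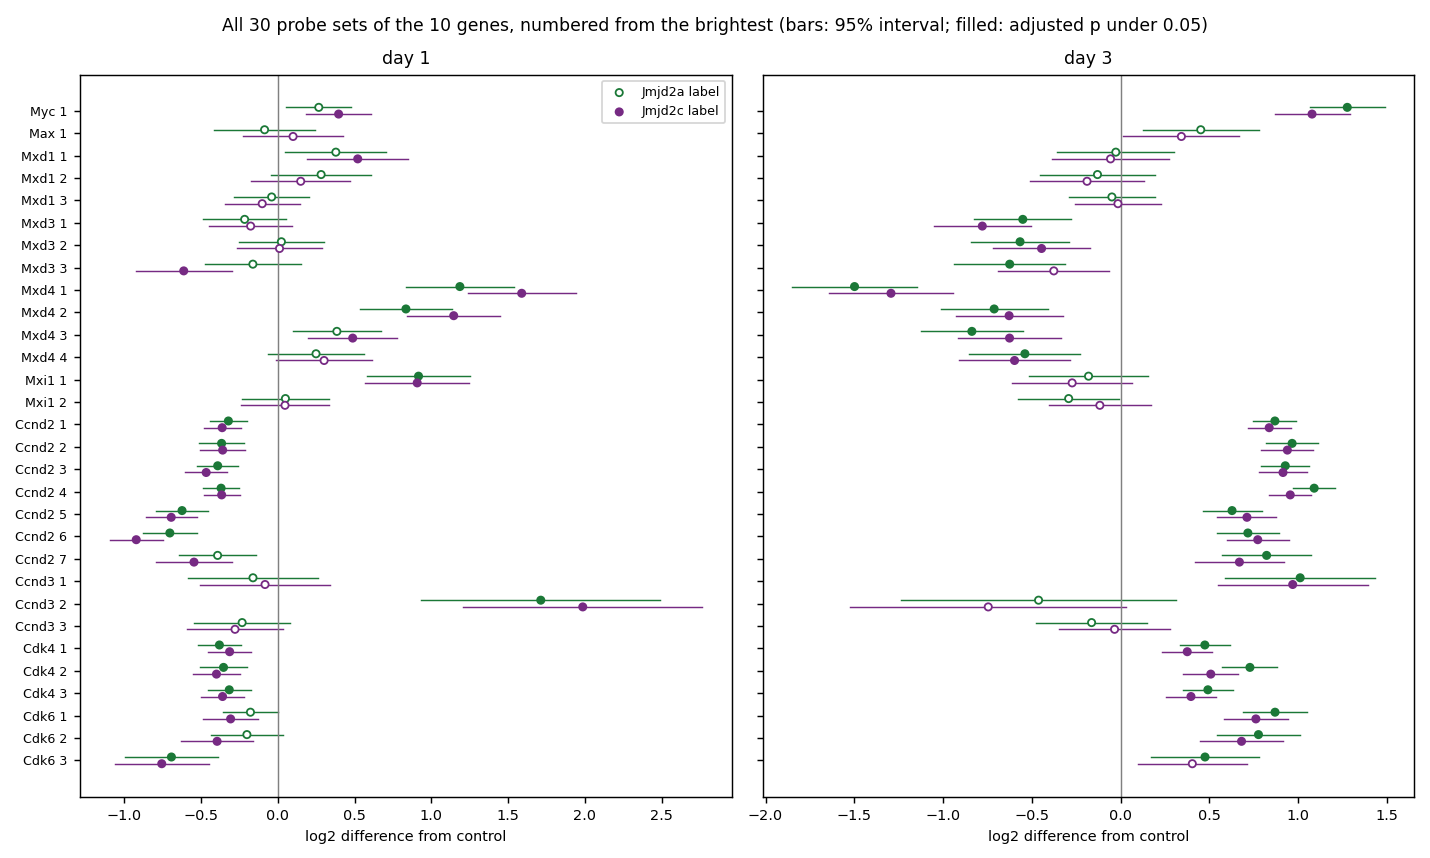
Log2 difference from control (horizontal axes) of all 30 probe sets of the 10 genes at day 1 and day 3, numbered within a gene from the brightest; bars are 95% intervals of the limma fit and filled points passed at an adjusted p under 0.05. The 7 probe sets of Ccnd2 lie together on one side of 0 on each day, while the second of Ccnd3 lies far right at day 1, at 1.71 and 1.99.

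The wider network was read from lists of other genes, described by counts and medians with no test of the list. Their counts stand beside the shares of all probe sets: at day 3 13.7% were higher and 7.11% lower under Jmjd2a, and 9.28% higher and 5.04% lower under Jmjd2c. Among probe sets above the median level 35.2% and 26.3% differed in either direction, and 40.1% changed in controls between the days. For the day 1 counts, 4.23% of all probe sets were higher and 3.25% lower under Jmjd2a, and 5.32% higher and 5.69% lower under Jmjd2c. Of those above the median level 13.4% and 19.6% differed at day 1 in either direction. Of 7 other members of the Max and Mlx networks, 1 was higher at day 1 under each label. This was Mlxip, a glucose-responsive partner of Mlx, at 0.54 (adjusted p = 0.016) and 0.52 (adjusted p = 0.015). At day 3 Mlx was higher under both (0.41 and 0.35, adjusted p = 0.005 and 0.017) and Mga under Jmjd2a (0.38, adjusted p = 0.021). With quantile normalization none of the list was higher at day 3. Several of these calls changed when 1 array was left out, which leaves 1 array in its group. For Mlxip at day 1, none of the list was higher without either control array of that day, under Jmjd2a without its first array, or under Jmjd2c without either of its arrays. At day 3 under Jmjd2a, 1 was higher without that label's first array or the second control array, and none without that label's second array. Under Jmjd2c none was higher without either of its arrays, and 2 were without the first control array.

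Of 14 measured cofactors and turnover factors of Myc and Mxd proteins, 7 were higher at day 3 under Jmjd2a and 5 under Jmjd2c, and 8 had fallen in controls. The count of 5 is not far from the 26.3% of brighter probe sets that differed. Ruvbl1 and Ruvbl2, helicase-like subunits of Myc's chromatin complexes, were higher by 0.79 and 0.77 under Jmjd2a and 0.69 and 0.83 under Jmjd2c. They fell by 0.86 and 0.96 in controls between the days. At day 1 both were lower, Ruvbl2 by 0.45 (adjusted p = 0.0049) and 0.49 (adjusted p = 0.0021). The histone deacetylase Hdac2, which serves the Mxd side through Sin3, was higher at day 3 by 0.47 and 0.50. Under quantile normalization the Jmjd2a count at day 3 was 4 higher and 2 lower, and it was 4 higher without either of that label's day 3 arrays and 7 higher and 1 lower without the second control array of that day. The 8 that fell in controls were 5 without either day 1 control array or any labelled day 3 array; without the second day 3 control array 7 fell and 1 rose. At day 1, 3 of the list were lower under Jmjd2a and 5 under Jmjd2c. Those counts were 0 and 2 without the first day 1 control array and 0 and 1 without the second. They were 1 under Jmjd2a without either of its day 1 arrays and 1 under Jmjd2c without its second.

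Genes that Myc is known to drive moved nearly all one way at day 3. Of 27 measured, 26 fell in controls between the days, with a median of -0.72, and 26 were higher at day 3 under each label, with medians of 0.62 and 0.64. The medians over all probe sets were 0.04, -0.04 and -0.01, and over those above the median level -0.09, 0.09 and 0.05. The list was chosen with earlier results of these data known, so its counts are a description only. Srm, which makes spermidine, fell by 1.19 (adjusted p = 1.2e-07) and was higher under the labels by 1.08 (adjusted p = 7.8e-07) and 1.10 (adjusted p = 9.8e-07). Odc1, the rate-limiting enzyme of polyamine synthesis, fell by 0.84 and was higher by 0.75 and 0.72. The mitochondrial chaperone Hspd1 fell by 0.70 and was higher by 0.62 and 0.61.

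At day 1 the same list lay on the other side of control: 19 of 27 were lower under Jmjd2a and 21 under Jmjd2c, with medians of -0.26 and -0.25 and none higher. Ppat, the first enzyme of purine synthesis, was lower by 0.45 (adjusted p = 0.002) and 0.49 (adjusted p = 0.00088), and Shmt1, of one-carbon metabolism, by 0.49 under each. Myc itself read higher, not lower, on all 4 of those arrays. Fewer of the list passed at day 1 under each label when either control array was left out, and under Jmjd2a without its first array. Each such fit leaves 1 array in a group, so a lost call does not show that the difference rested on the array left out.

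E2F target genes, which act in S phase, were lower at day 1 in 12 of 16 under Jmjd2a and 13 under Jmjd2c. Of all probe sets 3.25% and 5.69% were lower there. Rrm2, a subunit of ribonucleotide reductase, was lower by 0.40 (adjusted p = 0.0004) and 0.41 (adjusted p = 0.00021). Without the first or second day 1 control array the counts were 5 and 5 under Jmjd2a and 7 and 7 under Jmjd2c, and without the first labelled array 7 under Jmjd2a. At day 3, 11 were higher and 3 lower under each label. The licensing factor Cdt1 was higher by 0.91 and 0.93 and the helicase subunit Mcm2 by 1.04 and 0.99. Without either of a label's own day 3 arrays 1 was lower in place of 3, with 10 higher under Jmjd2a and 9 under Jmjd2c. In controls 12 had fallen and 3 risen.

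Of 9 other G1 and S phase cyclins and kinases, 3 were higher at day 3 and 1 lower under each label, not far from the 35.2% and 26.3% of brighter probe sets that differed. The one lower was Ccna2, cyclin A2 (-0.99 and -0.98, adjusted p = 4.8e-06 and 6.5e-06), which had risen by 1.24 in controls, opposite to the D cyclins. Cdc25a, the phosphatase that activates Cdk2, was higher by 0.41 and 0.38. At day 3 under Jmjd2a, 5 were higher without the first control array. Under Jmjd2c 2 were higher and 2 lower without the second control array, 1 was higher without that label's first array and none without its second. At day 1, 3 were lower under Jmjd2a, and 5 were lower and 1 higher under Jmjd2c. Without either day 1 control array 1 was lower under each label and none higher, and without either day 3 control array 6 were lower under Jmjd2a. Under Jmjd2c 4 were lower and none higher without that label's first day 1 array or either of its day 3 arrays, and 2 were lower and none higher without its second day 1 array.

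Of 7 inhibitors of cyclin-dependent kinases, 1 was higher at day 1 under each label, Cdkn1b (p27), at 0.75 (adjusted p = 0.0089) and 0.79 (adjusted p = 0.005). At day 3 Cdkn1b was lower by 0.66 and 0.69 (adjusted p = 0.0076 for each). Cdkn2a, the source of p16 and p19Arf, was lower there by 2.27 (adjusted p = 0.00013) and 0.94 (adjusted p = 0.037) and had risen by 2.58 in controls. At day 3, 3 were lower under Jmjd2a and 4 under Jmjd2c, none higher; the second count was 1 without an intensity trend or with array weights. The Jmjd2a count was 1 without that label's first day 3 array and 5 without the second control array. The Jmjd2c count was 0 without either of that label's day 3 arrays and 2 without either day 1 control array or either day 3 array labelled Jmjd2a. At day 1, no inhibitor was higher without the first control array under either label, nor under Jmjd2a without the second control array or that label's first array. Without either day 3 control array, 1 inhibitor under Jmjd2a and 2 under Jmjd2c also read as lower at day 1.

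Of 13 retinoblastoma and E2F genes, 3 were higher at day 3 under each label. Of all probe sets 13.7% and 9.28% were higher, and of those above the median level 35.2% and 26.3% differed in either direction. Nothing particular to the list is read from a count of 3. The genes higher were E2f1, E2f3 and E2f6, at 0.74, 0.62 and 0.87 under Jmjd2a and 0.73, 0.46 and 0.78 under Jmjd2c. Under Jmjd2c Rb1 and Rbl2, which hold E2F factors in check, were lower. That count of 2 was 1 without either day 1 control array, the first day 3 control array or either day 3 array labelled Jmjd2a, and 0 without either day 3 array of its own label. The count of 3 higher was 5 under Jmjd2a without the first day 3 control array, and 2 under Jmjd2c without that label's second day 3 array. Under Jmjd2a 2 were lower without the second day 3 control array, and 1 without any labelled day 1 array. At day 1, 3 were lower under Jmjd2a, and 4 lower and 1 higher under Jmjd2c. Without either day 1 control array none was lower or higher, and without either day 3 control array 8 were lower and 1 higher under each label. Without any 1 labelled array of either day, other than the second day 1 array labelled Jmjd2a for the Jmjd2a count, between 1 and 3 were lower and none higher.

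**Figure D5:**
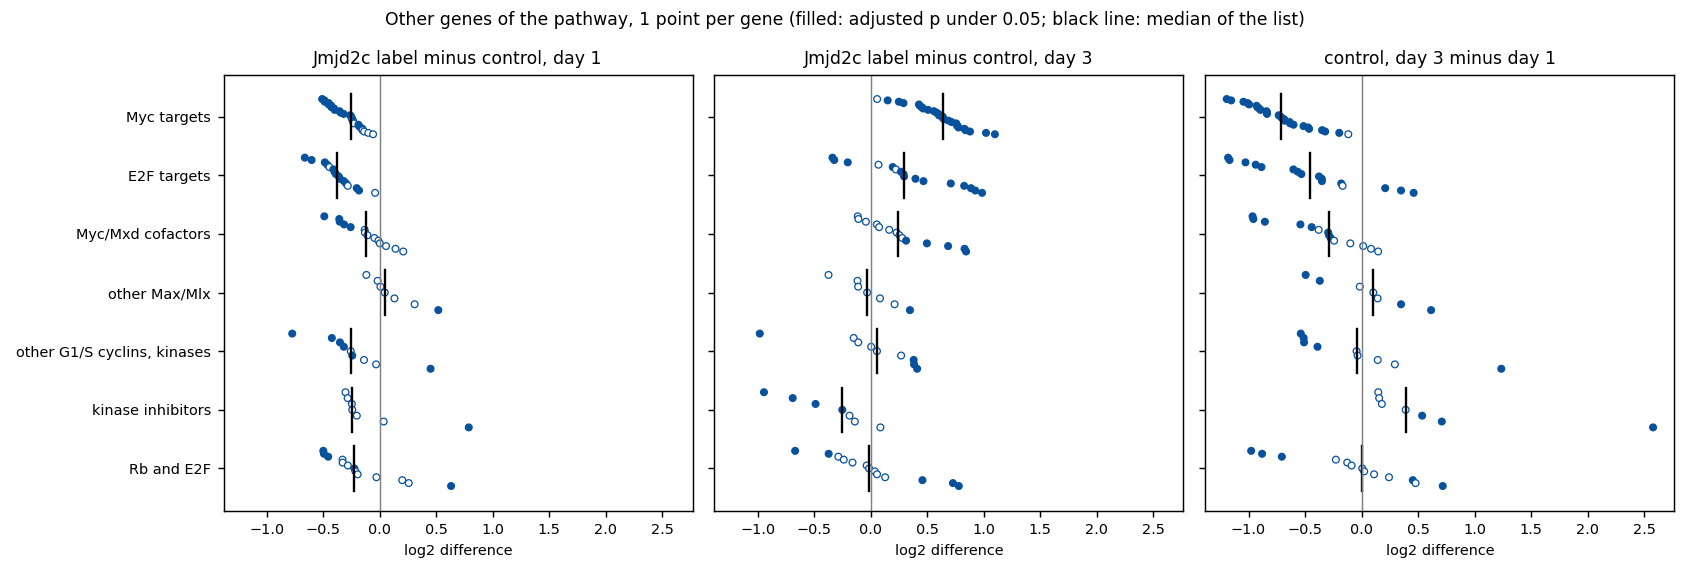
Log2 differences (horizontal axes) of other genes of the pathway, 1 point per gene, for the Jmjd2c label against control at day 1 and day 3 and for controls between the days; filled points passed at an adjusted p under 0.05 in limma and black lines are list medians. The Myc target genes lie left of 0 at day 1 (median -0.25), right of 0 at day 3 (median 0.64) and left of 0 in controls (median -0.72).

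The genes most like a member were found among 11174 genes above the median level, by the root mean square difference of log2 values over the 12 arrays after each gene was centred on its mean. Only members whose group means spanned at least 1 were used. Myc was closest to Ier2 (0.09), Gpr183 (0.09) and Cobll1 (0.10). Ccnd2 was closest to Ebna1bp2 (0.05), Lrmp (0.05) and Lyar (0.05), and Cdk6 to Dimt1 (0.04), Pole4 (0.05) and Iars (0.06). Ccnd3 was closest to Slc1a5 (0.09), Polr3d (0.10) and Snd1 (0.10).

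Mxd3 was closest to Srgap3 (0.09), Traf1 (0.10) and Cited2 (0.10). Mxd4 had no neighbour as near: Ifit1bl1 stood at 0.16, Syk at 0.19 and Slamf6 at 0.21. Syk, the kinase next to the B cell receptor, averaged 9.55 in day 1 controls, 10.49 and 10.76 in labelled day 1 arrays, 10.90 in day 3 controls and 9.82 and 10.03 in labelled day 3 arrays.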

How the data were processed

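RNA of 12 samples in 6 groups of 2 was hybridised to 1-colour Affymetrix mouse arrays. The deposited series table holds log2 values per probe set made by the authors; how they were normalized is not stated in the sources used, and array values carry no read depth. The table has 45101 probe sets, and 64 of them, controls of the array, were not used. Gene names came from the platform annotation; 34945 probe sets name 1 gene, 932 several and 9160 none, and those with several or none represent no gene here. In limma 3.58.1 (R 4.3.3), 6 group means were fitted with an intensity trend in the prior variance (6 residual and 5.85 prior degrees of freedom), with Benjamini-Hochberg adjustment over 45037 probe sets per contrast and a threshold of 0.05. The method was tested on simulated data. The members and lists were chosen with earlier results of these data known. Named genes were all members, up to 3 genes of smallest p per list and contrast, and up to 3 most alike genes per member; in the inhibitor and retinoblastoma lists, some named genes were chosen after their values were seen. Correlations of replicate differences were 0.035 and 0.092 between the day 1 controls and the labelled day 1 groups, and -0.072, -0.073 and 0.052 between day 3 groups. Between the 2 labelled day 1 groups the value was 0.392, so arrays of the same number shared some structure there. Replicate numbers were not used to pair the arrays in the main fit. Both day 3 control arrays carry the same description, while their titles number them apart. Alternatives were quantile normalization, centring, a filter on dim probe sets, no intensity trend, array weights, a replicate block and leaving out each array. A day 0 sample mentioned for the series is not analysed here. Figures were drawn with matplotlib 3.10.9 (Python 3.11.15).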

Additional observations from a re-analysis of the deposited data

Results flagged for a closer look

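The difference between a depletion label and its control was itself different at day 3 and at day 1 for several of the genes, by a limma test of the day 3 difference minus the day 1 difference with Benjamini-Hochberg adjustment over 45037 probe sets. Under the Jmjd2a label the values were 1.01 for Myc (adjusted p = 3e-04), 1.19 for Ccnd2 (3.4e-06), 1.17 for Ccnd3 (0.0099), 0.854 for Cdk4 (6.3e-05) and 1.05 for Cdk6 (7.7e-05). Mxd4 gave -2.68 (1.4e-05) and Mxi1 -1.1 (0.0038). Under the Jmjd2c label they were 0.681 for Myc (0.0039), 1.2 for Ccnd2 (2.5e-06), 1.05 for Ccnd3 (0.018), 0.688 for Cdk4 (0.00025) and 1.07 for Cdk6 (6e-05), with -2.88 for Mxd4 (7.2e-06), -1.18 for Mxi1 (0.0023) and -0.603 for Mxd3 (0.033). Of these, Ccnd2, Cdk4 and Mxd4 passed the test against control on both days in opposite directions under both labels. Leaving out 1 array ended 3 of these calls. Mxd3 under Jmjd2c did not pass without either day 1 control array, any array labelled Jmjd2c or either day 3 array labelled Jmjd2a, with values from -0.683 to -0.523, nor with array weights (adjusted p = 0.065). These values are of the brightest probe set of each gene. The second-brightest of Ccnd3 passed in the opposite direction, at -2.17 under Jmjd2a and -2.73 under Jmjd2c, and the dimmest of Mxd3 gave 0.24 under Jmjd2c, not past the test. The second probe set of Mxi1 gave -0.34 under Jmjd2a and -0.16 under Jmjd2c, neither past the test. Ccnd3 under Jmjd2c did not pass without either day 1 control array, the second day 1 array of that label or either of its day 3 arrays, with values from 0.939 to 1.09, and was 0.681 (0.015) without the second day 3 control array. Ccnd3 under Jmjd2a was 1.12 (0.05, not past the test) without the second day 3 array of that label.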

How the results depend on the processing

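Across the alternatives run on the 10 genes and all contrasts, no value that passed the test turned its direction; 23 values that did not pass changed sign on leaving out 1 array, and 5 under other settings. Genes past the test at day 1 under Jmjd2c numbered 3 in place of 7 without an intensity trend, and between days under Jmjd2c 6 in place of 3 with array weights; the cause was not tested. With the replicate number as a block the counts were 4 and 6 at day 1, 8 and 7 at day 3, 8, 4 and 3 between days, and 7 and 8 for the change of the difference. Replicate differences correlated clearly only between the 2 labelled day 1 groups, so nothing is read from these counts. Leaving out 1 array at a time, the counts ranged from 2 to 5 and 3 to 7 at day 1 (Jmjd2a, Jmjd2c), from 6 to 8 under each label at day 3, from 7 to 8 in controls between days, from 0 to 5 and 2 to 6 between days under the labels, stayed at 0 between labels, and ranged from 6 to 8 and 6 to 9 for the change of the difference. Where leaving out an array left 1 in a group, that array is assumed to vary like the other groups. Such a fit is less precise, so a call can be lost while its difference hardly changes. Cdk4 at day 1 under Jmjd2c was -0.313 in the main fit, and -0.32 and -0.306 without the first and second control array. Other differences did move, such as Ccnd3 at day 3 under Jmjd2a, from 1.01 to 0.64 without the second control array. The number of arrays, 2 a group, limits the precision.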
